A study of Homo sapiens with 24 samples.

Results

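The genes described are 40 ribosome biogenesis factors, chosen by name as proteins that make, modify or assemble ribosomal RNA in the nucleolus. A row was matched for 39 of the 40 symbols among 57820 genes of the deposited data, and all 39 passed the filter on low values along with 19835 genes in total. BOP1 was not matched to a row and was not analysed here. The study followed HUES6, a human embryonic stem cell line grown in FTDA medium, through a short mesoderm induction with 1.5 ng/ml BMP4 and 1.5 µM CHIR, a small molecule that switches on WNT signalling by blocking GSK3. Cells were labelled wild type (WT) or knockout (KO) for RBPMS, an RNA-binding protein, and each genotype was sampled at 0 h (before induction) and at 3, 6 and 48 h, with 3 libraries in each of 8 groups. All groups come from 1 line, and no uninduced culture of 3, 6 or 48 h is among them, so a change against 0 h cannot be told apart from one of time in culture. The labels do not give the number of KO clones or say whether the libraries of a group are separate cultures, so the p-values measure only the spread between these libraries, which may be technical.

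Ribosome production starts in the nucleolus, where RNA polymerase I transcribes the precursor of the large ribosomal RNAs. Small nucleolar RNA-protein particles (snoRNPs) then guide its methylation and pseudouridylation, and large sets of assembly factors cut and fold it around ribosomal proteins into the small (40S) and large (60S) subunits. Pluripotent stem cells are known for large nucleoli and high expression of these factors, and growth-promoting transcription factors such as MYC are known to act on many of them.

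The promoters of the members are shown first because many of them, though not most, share a short sequence that the choice of members did not use. The letters CACGTG, the canonical E-box that MYC, MAX and other helix-loop-helix proteins can bind, read the same on both strands. They occurred in the promoter (from 250 bases before to 50 bases after the RefSeq start) of 15 of the 33 members with a promoter in the RefSeq table, or 45.5%. Among tested protein-coding genes 1426 of 11883 held it. Of the 16 copies in members, 14 began between 50 bases before and 44 bases after the start. The other motif searched, CCGGAAG on either strand, cannot share bases with CACGTG and lay in 13 of the 33 members (39.4%) against 19.9% of the same tested genes. A match is a description of the letters and not evidence of binding. The 4 windows below each hold the 80 bases upstream of a start, with CACGTG in capitals, on GRCh38.p14 from 5′ to 3′ on the gene's strand. They belong to LYAR (chr4:4290022-4290101, minus strand), DDX21 (chr10:68956567-68956646, plus strand), UTP20 (chr12:101280025-101280104, plus strand) and NOP10 (chr15:34343137-34343216, minus strand). In LYAR the motif begins 64 bases before the start, in DDX21 31, in UTP20 10 and in NOP10 11. LYAR and DDX21 each have another RefSeq start whose promoter does not hold CACGTG. Their windows lie inside the annotated genes (chr4:4267701-4290169 and chr10:68956128-68985073), and that of NOP10 lies partly inside its gene (chr15:34341713-34343177).
LYAR: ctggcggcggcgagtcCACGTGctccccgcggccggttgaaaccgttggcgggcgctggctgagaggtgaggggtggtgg
DDX21: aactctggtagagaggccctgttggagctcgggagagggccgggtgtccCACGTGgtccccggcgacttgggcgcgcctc
UTP20: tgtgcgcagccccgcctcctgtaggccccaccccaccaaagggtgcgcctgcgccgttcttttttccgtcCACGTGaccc
NOP10: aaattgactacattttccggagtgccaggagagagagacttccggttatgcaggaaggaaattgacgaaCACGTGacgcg

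Levels are given as deposited, in CPM, a gene's reads scaled to a common library total and not divided by gene length. Log2 changes and their tests come from CPM scaled between libraries (TMM) plus 0.25, fitted over all 24 libraries with limma. The libraries held 29896358 to 50451908 reads. Over all genes tested, 3 libraries stood apart from the other libraries of their group. The highest correlation with a library of the same group was 0.978 in WT 0 h library 1. It was 0.989 in KO 3 h library 3 and 0.991 in WT 48 h library 3. In the last 2 the median deviation of the members was 0.09 and 0.13, with members on both sides of 0. In WT 0 h library 2, which was kept, this median was 0.24, as the plot of deviations by library shows. In WT 0 h library 1, 34 of the 39 members lay below the mean of the other 2 libraries, by a median of 0.34 on the log2 scale, and mitochondrial reads were 4.64% against 7.22% and 7.36%. In KO 3 h library 3 the summed level of 79 cytosolic ribosomal proteins was 35158 CPM against 61762 and 64981 in the other 2. In WT 48 h library 3 the same sum was 94907 CPM against 60925 and 63589. The results below are given with all libraries and, where these libraries move them, without them. RBPMS mRNA ranged from 95.4 to 155 CPM in the 12 WT libraries and from 80.6 to 158 CPM in the 12 KO libraries. By hour the KO libraries lay somewhat below WT at 3 h (90.5 to 104 against 105 to 107 CPM). They also did at 48 h (80.6 to 92.5 against 95.4 to 104 CPM), while the genotypes overlapped at 0 and 6 h. The mRNA thus remained in KO and does not separate the genotypes over all hours, and "KO" is the label's word throughout. Of 10 pluripotency markers all were detected in every group. In WT at 0 h they were not even between libraries. DNMT3B was at 995, 2094 and 2169 CPM and ZFP42 at 108, 256 and 245 CPM, both lowest in library 1. DPPA4 was at 1551, 1030 and 1161 CPM, highest in library 1. In KO the mean of ZFP42 was 212 CPM at 0 h, 24.3 at 3 h, 30.5 at 6 h and 194 at 48 h. In WT it was 125 CPM at 3 h, 148 at 6 h and 102 at 48 h. TBXT, EOMES and 6 other streak and mesoderm markers of 10 were under 1 CPM in every library at 0 h, while at 48 h in WT only HAND1 of the 10 was, with MESP2 at 0.57, 0.83 and 1.30 CPM. Amnion and trophoblast markers were summed at 19.2 to 27.7 CPM at 3 h and at most 1.61 CPM at 48 h. The 7 markers of fibroblasts, which can serve as feeder cells, summed to 430 to 879 CPM. COL3A1, DCN and LUM were under 1 CPM in every library, and COL1A1, COL1A2, THY1 and PDGFRB were expressed. The mean of COL1A2 in KO was 121 CPM at 0 h, 4.62 at 3 h, 3.27 at 6 h and 220 at 48 h. In WT it was 79.9 CPM at 0 h, 38.1 at 3 h, 26.8 at 6 h and 196 at 48 h. THY1, which stem cells also express, was at 651, 278 and 245 CPM in WT at 0 h, highest in library 1. Its WT mean was 556 CPM at 3 h and 514 at 6 h. The part of these genes in the results was not tested. The labels do not say whether the cultures of 3 and 6 h were grown apart from those of 0 and 48 h. Such a difference cannot be told apart from a change since 0 h. RNA from fewer cells of a type and less RNA per cell cannot be told apart in such bulk libraries.

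**Figure D1:**
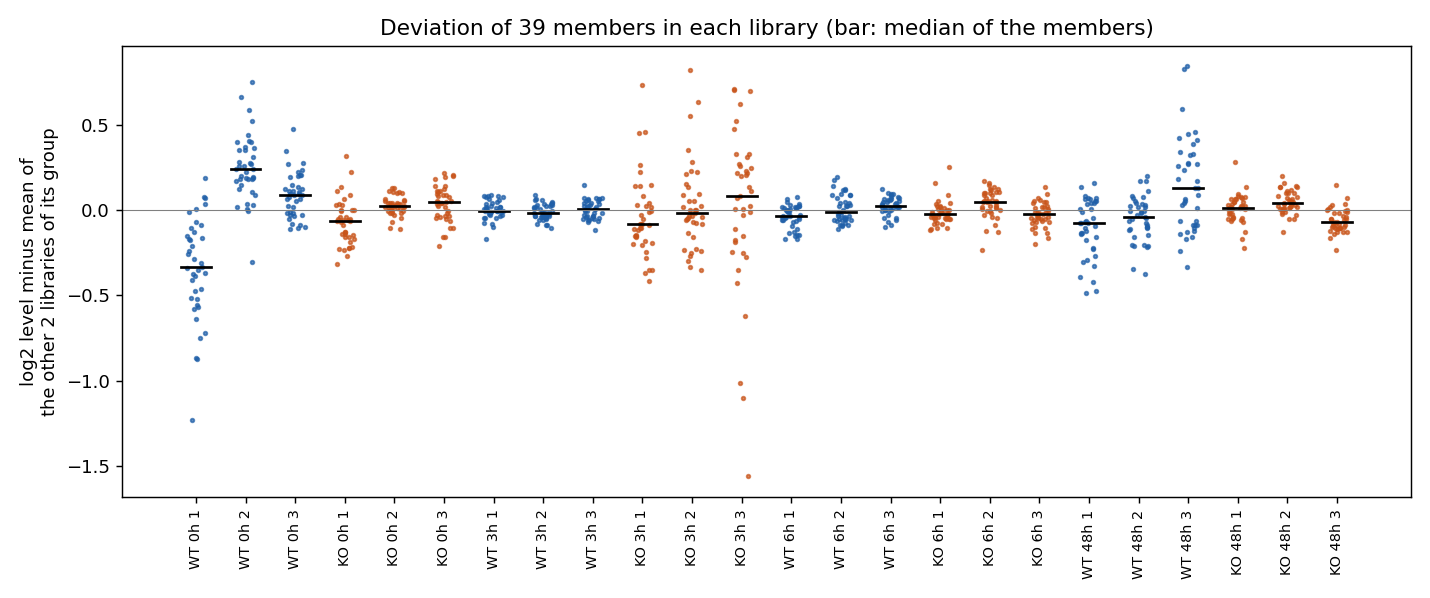
Deviation of each of the 39 members (points) from the mean of the other 2 libraries of its group, on the log2 scale (y axis), in each of 24 libraries (x axis), with the median as a bar. The WT 0 h library 1 median sits at -0.34, and the points spread widest in KO 3 h library 3.

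Most members were higher within hours of the start of induction, and by 48 h most were back at or below their starting level in WT. In WT, 29 of the 39 members rose by 3 h and 32 by 6 h (limma, adjusted p under 0.05), where 28.6% and 31.1% of all genes tested rose. The median log2 change of the members was 0.67 at 3 h and 0.87 at 6 h, against 0.01 and 0.00 over all genes. In KO, 33 members rose by 3 h (background 33.1%) and 33 by 6 h (background 33.4%), with medians of 0.82 and 1.03. WDR12 was the only member that fell, at 3 h in both genotypes (background 27.1% in WT and 32.6% in KO) and at 6 h in WT (background 31%). The highest group mean lay at 6 h in 32 members in WT and in 35 in KO. From 6 to 48 h, 36 members fell in WT (background 32.8%) and 37 in KO (background 32.6%), with medians of -1.22 and -0.97. The summed reads of the members were 1.03% ± 0.10 of a WT library at 0 h, 1.31% ± 0.015 at 3 h, 1.40% ± 0.025 at 6 h and 0.784% ± 0.022 at 48 h (mean ± SD, n = 3). In KO the shares were 0.892% ± 0.021 at 0 h, 1.28% ± 0.024 at 3 h, 1.41% ± 0.034 at 6 h and 0.889% ± 0.017 at 48 h. Without WT 0 h library 1 the WT medians were 0.55 at 3 h and 0.72 at 6 h. Without it the called changes of 7 members at 3 h and 3 at 6 h shrank by over 1.5 times. At 3 h they went from 0.87 to 0.55 in DDX21, 0.48 to 0.23 in NOP56, 0.59 to 0.38 in POLR1B, 0.35 to 0.19 in UTP4 and 0.58 to 0.39 in WDR43, and those of POLR1A and UTP20 and of NOP16, NOP56 and UTP20 at 6 h are given with these genes.

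**Figure D2:**
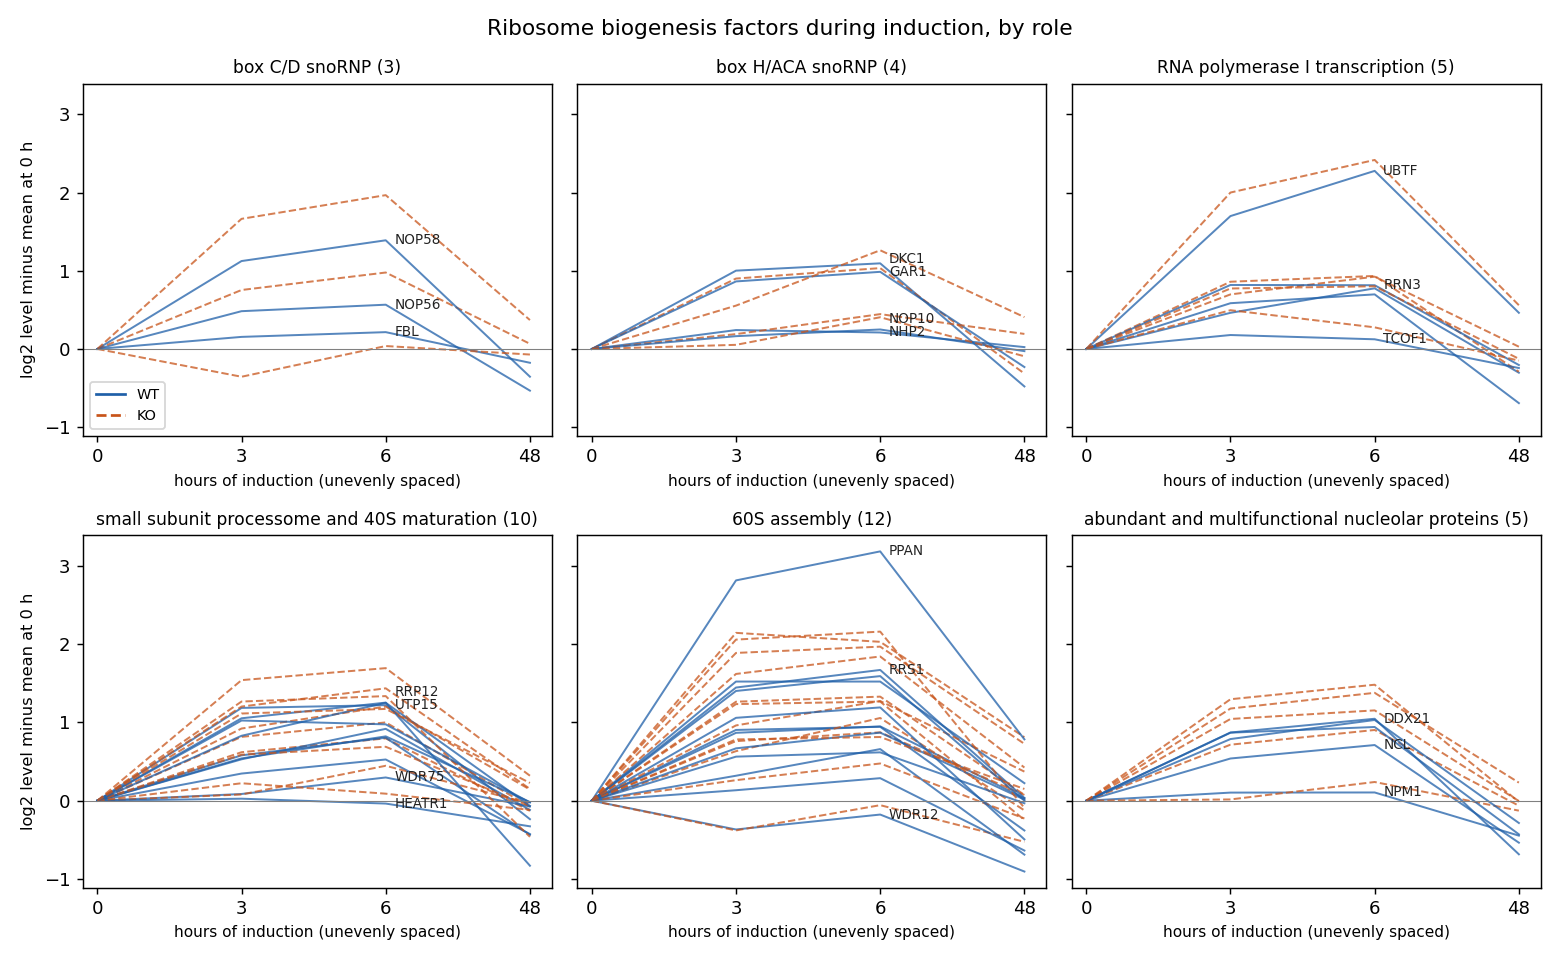
Group mean log2 level minus the mean at 0 h of the same genotype (y axis) at 0, 3, 6 and 48 h (x axis, uneven spacing) for each member, in 6 panels by role, with WT as solid blue and KO as dashed orange lines and the number of members in brackets. Most lines peak at 6 h, where UBTF and PPAN reach 2.28 and 3.19 in WT and WDR12 lies at -0.18.

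Among the factors of RNA polymerase I, UBTF, the protein that binds the ribosomal DNA promoter and keeps its chromatin open, rose most (ENSG00000108312.10, chr17:44205033-44221626). Its level was 90.6, 105 and 100.2 CPM in the WT libraries at 0 h, 302, 301 and 292 at 3 h, 428, 443 and 435 at 6 h and 133, 145 and 135 at 48 h. The KO libraries held 92.7, 95.3 and 98.6 at 0 h, 308, 320.4 and 512 at 3 h, 475, 508 and 461 at 6 h and 144, 144 and 151 CPM at 48 h. Within each genotype the 4 hours do not overlap, except for KO 3 h library 3 at 512, which lies above every KO library of 6 h. The log2 change at 6 h was 2.28 (SE 0.12, adjusted p = 5.2e-13) in WT, a 4.85-fold rise, and 2.42 (SE 0.12, adjusted p = 7.5e-14) in KO. UBTF and PPAN were the only members called above their 0 h level in WT at 48 h, UBTF by 0.46 (SE 0.12, adjusted p = 0.0026).

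RRN3, which brings RNA polymerase I to the promoter in response to growth signals, was at 63.5, 70.6 and 66.9 CPM at 0 h in WT and 108, 105 and 109.9 at 6 h, a log2 change of 0.81 (SE 0.08, adjusted p = 9.4e-09). In KO it went from 70.3, 68.4 and 68.4 to 109, 118 and 113 CPM. The 3 named RRN3 pseudogenes held 10.9% as many reads as the gene, so its counts may be shared with them. POLR1A, the largest subunit of the polymerase, was at 79.6, 118 and 125 CPM at 0 h in WT, 142, 131 and 133 at 3 h and 168, 160.1 and 165 at 6 h. Its WT 0 h library 1 was the lowest of these. The change at 3 h was 0.46 in WT and 0.23 without that library, and the change at 6 h was 0.78 (SE 0.11, adjusted p = 3.4e-06) in WT and 0.92 (SE 0.11, adjusted p = 1.9e-07) in KO. POLR1B, another core subunit, rose by 0.70 and 0.93 on the log2 scale. TCOF1, the treacle protein of Treacher Collins syndrome that works with UBTF, was not called in WT, at 0.12 (SE 0.15, adjusted p = 0.48). On the log2 scale UBTF thus changed more than either polymerase subunit at 6 h in both genotypes.

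**Figure D3:**
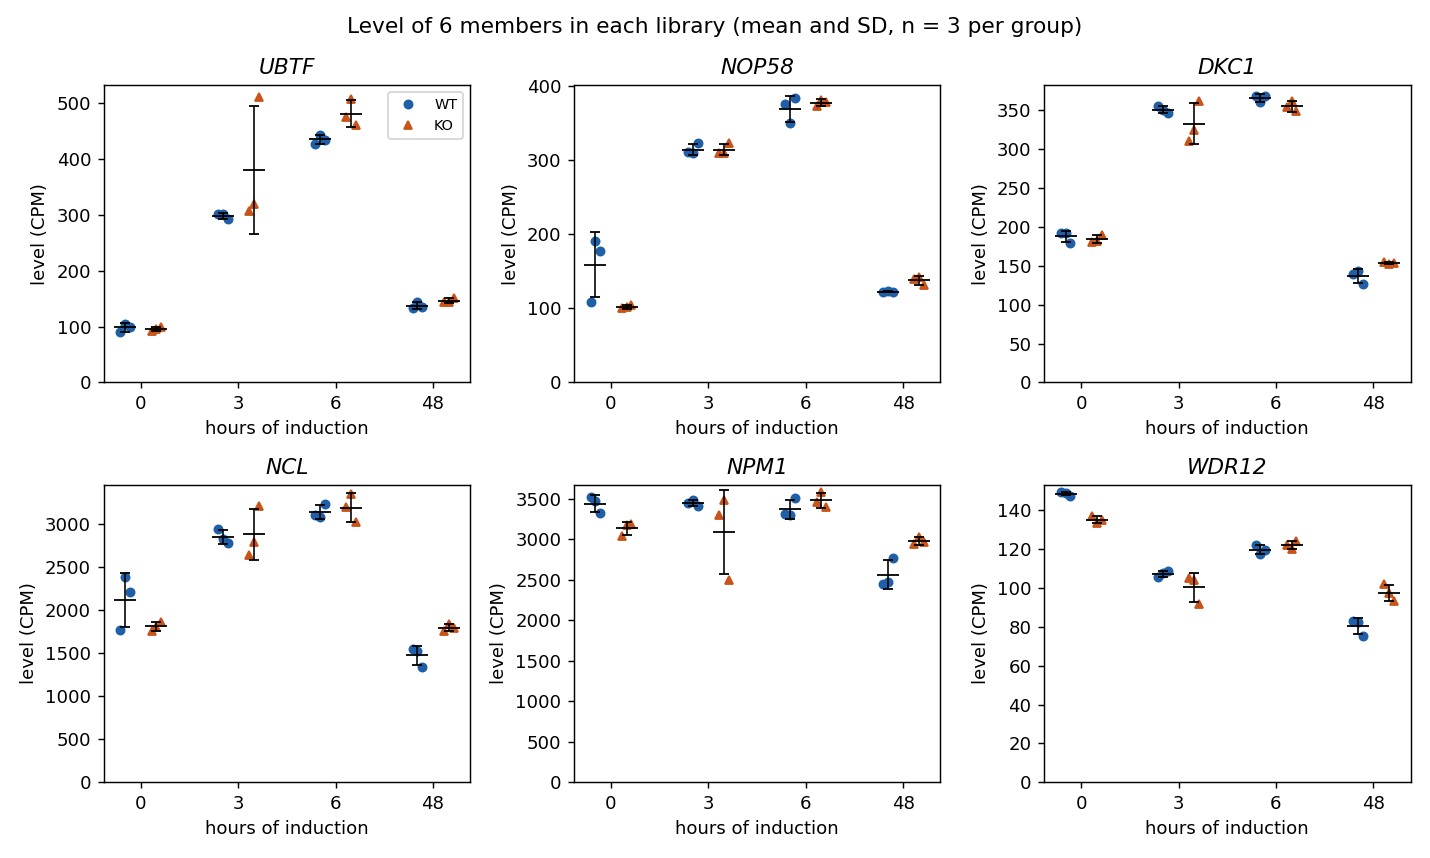
Level in CPM (y axis, from 0) of 6 members at each hour (x axis) in every library, with WT as blue circles, KO as orange triangles and black marks for the mean ± SD of 3 libraries. UBTF, NOP58, DKC1 and NCL are highest at 6 h in both genotypes, NPM1 changes little before 48 h, and WDR12 is highest at 0 h.

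The box C/D particle, which methylates ribose in ribosomal RNA, did not rise evenly. NOP58 (ENSG00000055044.6, chr2:202265716-202303666), one of its scaffold proteins, was at 109, 191 and 177 CPM at 0 h in WT and 99.95, 103 and 105 in KO. At 6 h it stood at 376, 350.00 and 384 in WT and 373, 382 and 379 in KO, above every library of 0 h. NOP58 changed by 1.39 (SE 0.12, adjusted p = 1.2e-09) in WT and 1.97 (SE 0.12, adjusted p = 2.0e-12) in KO. Its partner NOP56 (ENSG00000101361.10, chr20:2652145-2658393) was at 173, 285 and 265 CPM at 0 h in WT and 323, 321 and 309 at 6 h, and in KO at 160.1, 165 and 175 at 0 h and 317, 293 and 317 at 6 h. WT library 1 at 0 h was close to the KO libraries in both genes. NOP56 changed by 0.57 (SE 0.11, adjusted p = 1.6e-04) in WT, by 0.31 without that library, and by 0.98 (SE 0.11, adjusted p = 7.8e-08) in KO. FBL, the methyltransferase fibrillarin, was at 426, 477 and 502 CPM at 0 h in WT and 466, 527 and 492 at 6 h, with overlapping CPM and a change of 0.22 (SE 0.19, adjusted p = 0.33). In KO it was at 433, 483 and 538 at 0 h, then 454, 469.5 and 227 at 3 h and 469, 483 and 448 CPM at 6 h, and the low value at 3 h is library 3.

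In the box H/ACA particle, which turns uridine into pseudouridine, the enzyme moved and its smallest partners did not pass the test in WT. DKC1 (dyskerin, ENSG00000130826.11, chrX:154762742-154777689) was at 191, 192 and 179.6 CPM at 0 h in WT, 355, 349 and 346 at 3 h, 368, 359.6 and 368 at 6 h and 139, 144 and 127 at 48 h. KO libraries held 180.2, 182 and 189.8 CPM at 0 h, 310.5, 324 and 362 at 3 h, 353, 362 and 348 at 6 h and 155, 152 and 153 at 48 h. The 4 hours do not overlap in WT, and in KO only 3 and 6 h do. The 6 h change was 1.09 (SE 0.07, adjusted p = 4.1e-12) in WT and 1.03 (SE 0.07, adjusted p = 5.5e-12) in KO, a rise of about 2.14-fold in WT. GAR1, a core partner, rose by 0.99 (SE 0.24, adjusted p = 0.0011) in WT. NHP2 and NOP10, the other two core proteins, were at 0.21 (SE 0.17, adjusted p = 0.28) and 0.25 (SE 0.21, adjusted p = 0.31) in WT. In KO, NHP2 passed the test at 6 h, at 0.45 (SE 0.17, adjusted p = 0.022). GAR1, NHP2 and NOP10 had their lowest KO 3 h level in library 3, GAR1 with 106, 109 and 36.0 CPM and NOP10 with 111, 119 and 53.2. NHP2 and NOP10 were highest in WT 48 h library 3 of the WT 48 h libraries, NHP2 with 89.1, 93.0 and 156 CPM.

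Of 10 factors of the small subunit processome and 40S maturation, 8 rose by 3 h and 9 by 6 h in WT (background 28.6% and 31.1%). In KO 9 rose by each hour (background 33.1% and 33.4%). RRP12, which accompanies the pre-40S particle out of the nucleus, was at 47.5, 70.6 and 63.4 CPM at 0 h in WT, 131, 135 and 124 at 6 h and 32.1, 34.0 and 35.7 at 48 h, so the hours do not overlap. It changed by 1.25 (SE 0.12, adjusted p = 6.6e-09) at 6 h and by -0.83 (SE 0.12, adjusted p = 4.1e-06) at 48 h against 0 h. In KO, RRP12 was at 47.2, 51.4 and 52.9 CPM at 0 h, 119, 118 and 124 at 6 h and 39.03, 38.0 and 36.8 at 48 h. RRP9 rose by 1.25 and UTP15, a subunit that joins the nascent transcript early, by 1.22 in WT at 6 h. UTP15 was at 33.8, 45.3 and 41.8 CPM at 0 h in WT and 84.8, 81.7 and 89.8 at 6 h, and in KO at 30.4, 31.0 and 29.6 at 0 h and 90.4, 97.1 and 91.4 at 6 h. BYSL (bystin), UTP20, NOP14, WDR43 and UTP4 rose by 0.53 to 0.98. UTP20 was at 0.92 with all libraries and 0.47 without WT 0 h library 1, and UTP4 was then at 0.36. Part of the UTP4 locus is shared with SNTB2 on the same strand, so its reads may be split with that gene. The UTP20 change at 3 h was 0.53 with all libraries and 0.08 without WT 0 h library 1, and its call was also lost without any 1 of the WT 3 h libraries. WDR75 rose by 0.30 (SE 0.07, adjusted p = 4.6e-04) in WT. HEATR1, of the same early subcomplex as UTP4, UTP15, WDR43 and WDR75, was the 1 member of the 10 not called at 6 h in either genotype, at -0.04 (SE 0.09, adjusted p = 0.74) in WT.

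The 12 measured factors of 60S assembly held the largest rise in WT and the only fall. RRS1, which helps load the smallest ribosomal RNA onto the pre-60S particle, was at 17.6, 36.8 and 29.7 CPM at 0 h in WT, 75.1, 84.7 and 75.4 at 6 h and 24.3, 27.1 and 32.7 at 48 h. KO libraries held 15.3, 18.6 and 19.7 at 0 h, 70.9, 73.7 and 86.8 at 3 h, 72.6, 71.7 and 63.5 at 6 h and 31.7, 34.6 and 31.6 CPM at 48 h. RRS1 changed by 1.67 (SE 0.17, adjusted p = 1.7e-08) in WT and 2.03 (SE 0.17, adjusted p = 4.4e-10) in KO. NIP7, an RNA-binding pre-60S factor, was at 54.6, 67.7 and 63.9 CPM at 0 h in WT, 165, 164 and 169.7 at 3 h and 64.9, 69.5 and 87.4 at 48 h, and its change at 3 h was 1.52 (SE 0.10, adjusted p = 2.0e-11). In KO it was at 41.2, 46.0 and 47.8 CPM at 0 h and 78.6, 82.0 and 71.8 at 48 h. MRTO4, which holds the place of a stalk protein, rose by 1.59 in WT and 1.84 in KO at 6 h. RRP1B, NOP2, PES1, BRIX1, NOP16 and NOC2L rose by 0.62 to 1.19 in WT. NOP16 was at 29.98, 55.2 and 48.2 CPM at 0 h in WT, with library 1 far below the others, and 60.7, 63.3 and 62.4 at 6 h, and its change of 0.66 was 0.37 without that library.

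PES1 and WDR12 work in 1 complex with BOP1 but moved apart. PES1 was at 114, 129.8 and 114 CPM at 0 h in WT and 199, 221 and 210.2 at 6 h, a change of 0.95 (SE 0.08, adjusted p = 1.1e-09). WDR12 (ENSG00000138442.5, chr2:202874782-203014798) was at 149, 149 and 148 CPM at 0 h, 106, 108 and 109 at 3 h, 122, 117 and 119.8 at 6 h and 83.3, 82.5 and 75.5 at 48 h, with no overlap between hours. In KO it was at 137, 134 and 135 CPM at 0 h, 105, 104 and 92.0 at 3 h, 122, 120.4 and 124 at 6 h and 102, 97.5 and 93.2 at 48 h. WDR12 changed by -0.37 (SE 0.06, adjusted p = 2.6e-05) at 3 h and -0.18 (SE 0.06, adjusted p = 0.016) at 6 h in WT. The fall at 6 h lost its call with no filter on low values, where the change was -0.13 (adjusted p = 0.12). GNL3 (nucleostemin, known from stem cells, ENSG00000163938.12, chr3:52681156-52694492) changed less, from 226, 239 and 219.96 CPM at 0 h in WT to 259, 247 and 257 at 6 h and 145, 148 and 153 at 48 h. Its 6 h change was 0.29 (SE 0.06, adjusted p = 4.8e-04) in WT and 0.48 (SE 0.06, adjusted p = 7.5e-07) in KO. PPAN was the lowest member per kb of exon, with 1.64, 1.27 and 1.60 CPM at 0 h in WT, 14.6, 14.9 and 13.6 at 6 h and 2.49, 2.63 and 3.36 at 48 h. The KO libraries were at 2.83, 2.50 and 2.62 CPM at 0 h, 13.6, 10.6 and 11.9 at 6 h and 2.98, 2.49 and 2.28 at 48 h. Its change of 3.19 (SE 0.14, adjusted p = 2.0e-14) in WT was larger than that of any other member. PPAN overlaps P2RY11 and a readthrough gene on its strand, which together hold more reads than PPAN, so its values are uncertain.

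The abundant nucleolar proteins NCL and NPM1 differed. NCL (nucleolin, a binder of nascent ribosomal RNA, ENSG00000115053.11, chr2:231453531-231483641) was at 1767, 2381 and 2213 CPM at 0 h in WT, 2944, 2831 and 2779 at 3 h, 3107, 3079 and 3231 at 6 h and 1547, 1532 and 1342 at 48 h. KO libraries held 1763, 1807 and 1863 CPM at 0 h, 2639.7, 2799 and 3207 at 3 h, 3200.02, 3355 and 3022 at 6 h and 1759.9, 1843 and 1793 at 48 h. NCL changed by 0.71 (SE 0.11, adjusted p = 4.1e-06) at 6 h in WT, a 1.64-fold rise. NPM1 (nucleophosmin, a chaperone of the outer nucleolus, ENSG00000181163.9, chr5:171387116-171411137) was at 3528, 3473 and 3331 CPM at 0 h in WT, 3311, 3306 and 3512 at 6 h and 2454, 2477 and 2769 at 48 h. In KO it stood at 3042, 3179 and 3191 CPM at 0 h, 3469, 3583 and 3403 at 6 h and 2943, 3037 and 2968 at 48 h. NPM1 was not called at 6 h, at 0.11 (SE 0.11, adjusted p = 0.43) in WT, and was lower at 48 h than at 0 h in WT, at -0.45 (SE 0.11, adjusted p = 0.0018). Its 45 named pseudogenes held 0.899% as many reads. The helicase DDX21 was at 351, 701 and 607 CPM at 0 h in WT, where library 1 was near the KO libraries at 416, 399 and 369, and 1011, 961 and 1028 at 6 h. DDX21, NOLC1 (a snoRNP chaperone) and LYAR rose by 1.05, 0.94 and 1.03 in WT.

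More members were called lower at 48 h than at 0 h in WT than in KO. The direct test of the difference at 48 h, given below, called 11 members (background 3.84% more positive and 3.92% more negative). With only the groups compared it called fewer, as given in the section on processing. In WT, 21 members were lower at 48 h than at 0 h (background 26.5%) and 2 higher (background 26.8%), with a median of -0.24. The lowest were WDR12 at -0.91, RRP12 at -0.83 and POLR1B at -0.69. POLR1B was at 67.4, 105 and 92.8 CPM at 0 h in WT and 56.8, 58.2 and 48.8 at 48 h, without overlap. In KO, members were called in smaller shares than all genes, with 5 lower (background 27.4%) and 8 higher (background 25.4%) and a median of -0.01. The highest were RRS1 at 0.81 (SE 0.17, adjusted p = 3.6e-04), NIP7 at 0.73 (SE 0.10, adjusted p = 2.2e-06) and UBTF at 0.56 (SE 0.12, adjusted p = 4.8e-04). The lowest were WDR12 at -0.53, RRP12 at -0.46 and DKC1 at -0.31. Without the 3 libraries that stood apart 23 members differed in KO between 48 and 0 h (background 68.4%). The WT median rests in part on WT 0 h library 1, without which it was -0.43. Without library 1 the changes of NOP58, POLR1A, LYAR and UTP15 grew by over 1.5 times, to -0.61 from -0.35, to -0.51 from -0.30, to -0.43 from -0.28 and to -0.36 from -0.24. The WT median was -0.16 without WT 0 h library 2.

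Members with larger early changes in WT also had larger ones in KO. Over the 39 members the 6 h changes of the genotypes, which share no library, had a Pearson r of 0.913, and the 3 h changes 0.898. These are descriptions over genes of the same libraries, with no test. At 48 h the r was 0.601. The difference itself (KO change minus WT change) was tested at each hour. At 3 h it was called in NOP58 at 0.54 (SE 0.17, adjusted p = 0.048) and in PPAN at -0.76 (SE 0.19, adjusted p = 0.015), where 3.59% and 5.45% of all genes were called in these directions. At 6 h it was called in NOP58, UTP15, BRIX1 and PPAN, at 0.58, 0.47, 0.40 and -1.03 (background 3.12% more positive and 5.46% more negative). BRIX1, a factor of pre-60S folding, was at 57.6, 67.1 and 59.5 CPM at 0 h in WT and 102, 99.1 and 106 at 6 h, and in KO at 42.3, 47.0 and 46.1 at 0 h and 98.8, 104 and 106 at 6 h. The tested difference takes in the gap between genotypes at 0 h, so it is not independent of that gap. NOP58 had a mean log2 level of 7.21 in WT and 6.67 in KO at 0 h, and 8.34 in both at 3 h. PPAN was at 0.75 in WT and 1.53 in KO at 0 h, and at 3.57 and 3.59 at 3 h. As given below, no member was called between the genotypes at 3 or 6 h in the fit of all libraries. At 48 h the change was more positive in KO for 10 members (background 3.84%), led by RRS1 at 0.78 (SE 0.24, adjusted p = 0.0498), NOP58 at 0.72 (SE 0.17, adjusted p = 0.0090) and DDX21 at 0.67 (SE 0.20, adjusted p = 0.046), and more negative for PPAN at -0.88 (SE 0.19, adjusted p = 0.0060) (background 3.92%). Without WT 0 h library 1 the KO change was more positive in 20 members at 3 h, 17 at 6 h and 26 at 48 h (DDX21 at 1.02), where backgrounds were 12.1%, 12.2% and 14.4%. With any other single library left out, 0 to 2 members had a more positive KO change at 3 h and 0 to 2 at 6 h. At 3 h the 2 came without KO 3 h library 3 and the count was 0 without each of the other 10, and at 6 h 1 or 2 members in either direction were called without each except KO 6 h library 1, with 3. At 48 h the count was 4 without WT 0 h library 2, KO 0 h library 1 or WT 48 h library 2, and 5 without WT 0 h library 3 or KO 48 h library 2. Over the 12 left-out fits at each hour, 6.13% to 25.3%, 5.82% to 25% and 5.01% to 25.9% of all genes were called either way. Without the 3 libraries that stood apart the difference was called in 29 members at 3 h, 32 at 6 h and 36 at 48 h, where 38.1%, 40.1% and 38.4% of all genes were called. The PPAN difference was called without each of the 12 libraries at 3, 6 and 48 h. With only the groups compared it was not called by limma at 3 h (adjusted p = 0.063) or at 48 h (adjusted p = 0.070).

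**Figure D4:**
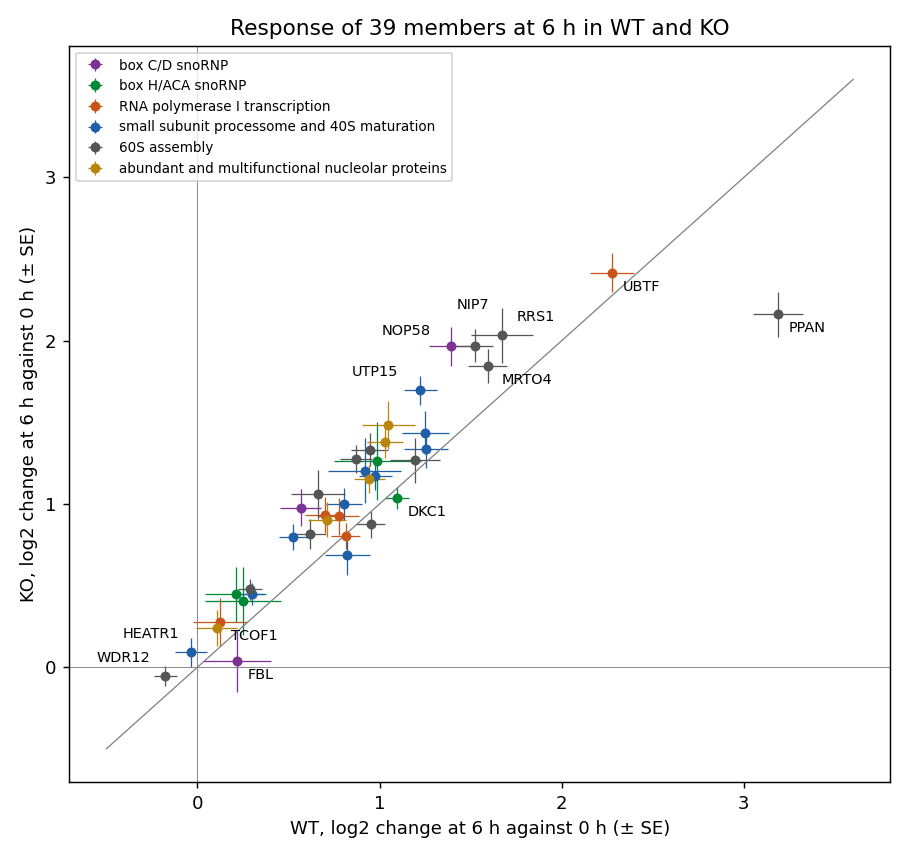
Log2 change at 6 h against 0 h in WT (x axis) and in KO (y axis) for 39 members, with bars of 1 SE, colours for role and a line of equality. Above the line lie 33 of 39 members, with NOP58 at 1.39 and 1.97, while PPAN lies below it.

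KO and WT differed in 14 members before induction and in 2 at 48 h. The 2 at 48 h are no larger a share than the 6.86% of all genes called higher in KO. At 0 h 13 members were lower in KO (background 6.52%) and PPAN was higher (background 8.76%), with a median difference of -0.19 against 0.01 over all genes. The lowest were NOP58 at -0.54 (SE 0.12, adjusted p = 0.0038), RRS1 at -0.53 (SE 0.17, adjusted p = 0.038) and NOP56 at -0.45 (SE 0.11, adjusted p = 0.010). In each of these 3 the KO libraries lay below WT libraries 2 and 3 and close to WT library 1, as the values by library above show. By role the 13 were 7 of 12 factors of 60S assembly, 2 of 3 of the box C/D particle, 2 of 10 of the small subunit and 2 of 5 nucleolar proteins. NOP58, BRIX1 and PPAN were called with each of the 6 libraries left out in turn. Without WT 0 h library 1, 24 members were lower in KO (background 16.5%) with NOP58 at -0.81, RRS1 at -0.86, NOP56 at -0.69, NOP16 at -0.73 (from -0.44), NOLC1 at -0.40 (from -0.26) and UTP4 at -0.41 (from -0.25), without WT library 2 there were 2 and without WT library 3 there were 5. Without KO 0 h library 1 or 2 there were 4 and 7. With each of the 6 libraries left out in turn, 7.61% to 33.1% of all genes were called in either direction. Without the 3 libraries that stood apart 30 members differed at 0 h (background 46.8%). In a fit of the 6 libraries at 0 h alone none passed limma's threshold, where 12 had an unadjusted p under 0.05 and 1.06% of all genes was called.

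At 3 and 6 h no member passed the test between KO and WT in the fit of all 24 libraries. None was called by limma at 3 h (background 2.78%), where 3 had an unadjusted p under 0.05. None was called at 6 h (background 2.45%), where 0 had an unadjusted p under 0.05. Neither edgeR nor DESeq2 called any at these hours, each with 1 member at an unadjusted p under 0.05 at 3 h, and at 6 h with 0 by edgeR and 1 by DESeq2. Differences at 3 h ran from -0.56 (GAR1) to 0.31 (UBTF), and these 2 and FBL at -0.41 were the 3 with a limma p under 0.05 before adjustment. GAR1 and FBL were lowest in KO 3 h library 3. Differences ran from -0.25 (PPAN) to 0.15 (UBTF) at 6 h. Without the 3 libraries that stood apart, NOLC1 and DKC1 were lower in KO at 3 h (background 5.52%), at -0.15 and -0.14, and UBTF was higher at 6 h (background 5.63%), at 0.15.

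At 48 h WDR12 was higher in KO by 0.30 (SE 0.06, adjusted p = 0.0018) and GNL3 by 0.22 (SE 0.06, adjusted p = 0.024). These 2 of 39 are no larger a share than the background of 6.86%. KO libraries at 48 h held 174, 179 and 162 CPM of GNL3, above the 145, 148 and 153 of WT. WDR12 also lay above every WT library in each KO library. The median difference was 0.15, with 31 of 39 members positive. The median over all genes at 48 h is not given here. NCL was at 0.31 (SE 0.11, adjusted p = 0.060) and DKC1 at 0.19 (SE 0.07, adjusted p = 0.069), and neither was called although the libraries of these genes do not overlap. The call of GNL3 was lost when KO 48 h library 2, WT 48 h library 1 or WT 48 h library 2 was left out. Without the 3 libraries that stood apart, 23 members were higher in KO at 48 h (background 13.6%), led by FBL at 0.41, RRS1 at 0.39 and GAR1 at 0.36, with a median of 0.18. Of these 3 libraries only WT 48 h library 3 belongs to the 48 h groups. Pluripotency markers moved with this difference: all 10 had a higher mean CPM in KO at 48 h, with a summed level of 9092 to 9432 CPM in KO and 6489 to 6980 CPM in WT. Streak and mesoderm markers summed to 1054 to 1183 CPM in KO and 1739 to 1917 CPM in WT. Among them GSC alone had a higher mean in KO, at 32.9 against 27.0 CPM. The 4 measured definitive endoderm markers summed to 210 to 238 CPM in KO and 146 to 169 CPM in WT. Of these GATA6 had a lower mean in KO, at 88.3 against 93.8 CPM. The part of all these markers in the difference was not tested.

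**Figure D5:**
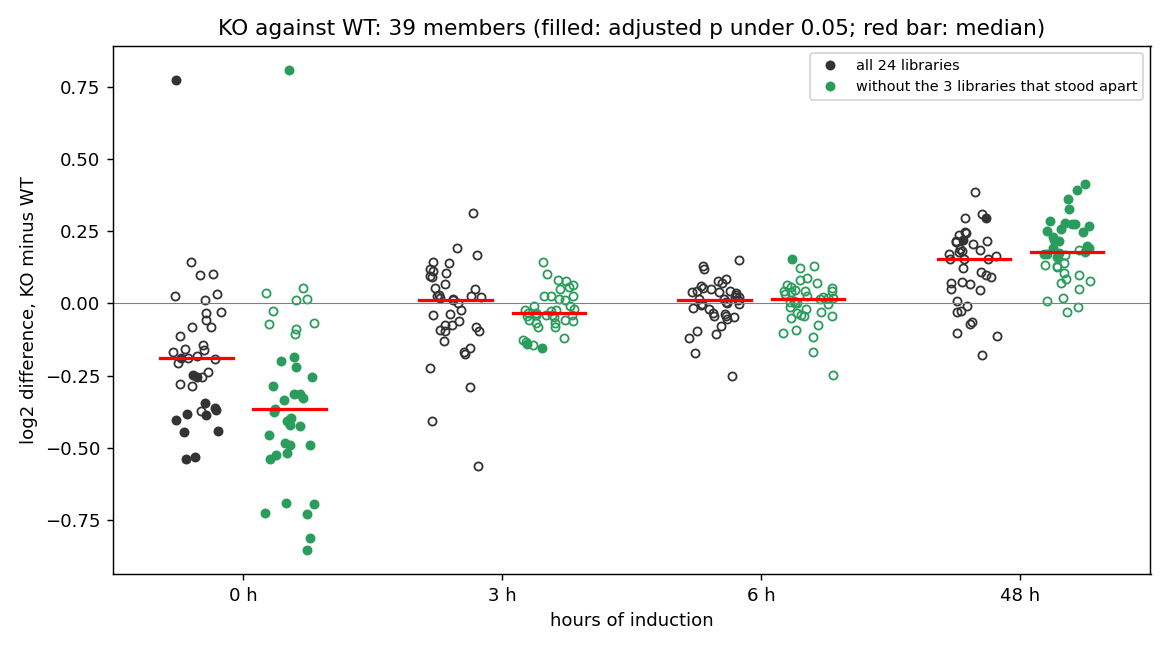
Log2 difference KO minus WT (y axis) for 39 members at each hour (x axis), with all 24 libraries in black and without the 3 libraries that stood apart in green, filled where the adjusted p is under 0.05 and with the median in red. The medians with all libraries are -0.19, 0.01, 0.01 and 0.15.

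Other factors of the pathway moved with the members at 6 h, and most ribosomal proteins were not called. Of 104 further assembly, processing and polymerase factors, 82 rose and 5 fell in WT at 6 h (background 31.1% and 31%), with a median of 0.64. In KO 84 rose and 5 fell (background 33.4% and 35.1%). By list, 8 of 11 polymerase I factors, 5 of 8 snoRNP factors, 33 of 40 small subunit and 36 of 45 large subunit factors rose in WT. At 48 h against 0 h in WT the largest changes of these were CEBPZ at -1.60, DDX47 at -1.05, WDR18 at 0.99 and NOP53 at 0.82. In KO they were CEBPZ at -1.38, DDX47 at -0.85, RRP7A at 1.00 and RRP36 at 0.88. At 0 h 23 of the 104 were lower in KO and 4 higher (background 6.52% and 8.76%), with EBNA1BP2 at -0.59, RRP7A at -0.59, NOP53 at 0.47 and NOB1 at 0.45. At 48 h 8 of the 104 were higher in KO, near the 6.86% of all genes, led by CEBPZ at 0.67 and MDN1 at 0.62. Of 13 subunits of the RNA exosome, which trims precursor RNA, 6 rose in WT and 8 in KO at 6 h. Of 79 cytosolic ribosomal proteins, 5 rose and 2 fell in WT at 6 h, with a median of 0.10 against 0.87 for the members. In KO 4 rose and 20 fell at 3 h (background 33.1% and 32.6%), where library 3 was low in their sum, and 6 rose and 2 fell at 6 h.

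MYC, a known activator of nucleolar genes, fell as the members rose. It was at 79.8, 89.99 and 84.4 CPM at 0 h in WT, 59.9, 55.3 and 59.3 at 3 h, 54.1, 55.5 and 53.3 at 6 h and 32.3, 25.7 and 27.8 at 48 h. In KO it was at 80.7, 88.8 and 94.7 CPM at 0 h, 62.7, 59.0 and 74.8 at 3 h, 45.4, 50.1 and 47.5 at 6 h and 41.8, 43.6 and 44.7 at 48 h. MYC changed by -0.50 (SE 0.09, adjusted p = 5.6e-05) at 6 h in WT and was higher in KO than in WT at 48 h by 0.62 (SE 0.09, adjusted p = 4.6e-05). MYCN, its relative in stem cells, was at 68.0 ± 10.7 CPM at 0 h, 53.7 ± 4.01 at 6 h and 16.4 ± 2.30 at 48 h in WT (mean ± SD, n = 3), and in KO at 65.2 ± 5.15, 46.2 ± 1.23 and 20.3 ± 1.22 CPM at the same hours. It passed the test at 6 h in KO (-0.40) but not in WT (-0.19), and the difference between these changes was -0.21 (SE 0.18, adjusted p = 0.54). MYCL went from 26.6 ± 2.04 CPM at 0 h to 6.37 ± 0.22 at 6 h and 27.4 ± 2.09 at 48 h in WT, lowest at the hour when most members were highest. MAX, the dimer partner of these proteins, rose in WT at 6 h by 0.33 (SE 0.10, adjusted p = 0.0049).

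Members with and without CACGTG in the promoter both had a positive median change early on. At 6 h in WT the median change was 0.94 in the 15 with the motif (from 0.22 to 1.59) and 0.70 in the 18 without it (from -0.18 to 3.19). UBTF, with the largest change after PPAN, is among those without it, and FBL, not called at 6 h, is among those with it. Some members also share a place in the genome with other nucleolar RNAs. In the annotation 7 of 39 members (17.9%) hold a small nucleolar RNA on their strand, namely NOP56, NOP58, DKC1, WDR43, PPAN, GNL3 and NCL, against 1.63% of 15186 tested protein-coding genes. The snoRNAs themselves were not analysed here. Per kb of merged exons the levels over all groups ran from 834 CPM per kb for NPM1, 348 for NCL and 212 for FBL to 9.09 for POLR1A and 2.84 for PPAN. In 17 members a gene on the opposite strand overlaps, and whether the authors counted by strand is not given in the sources used here, so reads of such pairs may be mixed.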

How the data were processed

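RNA of HUES6 cells was sequenced as 24 stranded mRNA libraries, 3 in each of 8 groups taken from the labels. The gene table deposited by the authors holds CPM, from which whole reads were recovered for every value within 0.1 read, and the transcript table deposited by the authors holds raw counts. The submitters' processing notes name hg38 and DESeq2; the aligner and counting step are not given in the sources used here. Because the first line of the gene table is short by a cell, columns were checked against the transcript counts, and 24 of 24 matched best their own library in deviations from their group's mean. Over all libraries 22 of 24 did, and the other 2, WT 48 h libraries 2 and 3, matched best WT 48 h library 1. Gene symbols and coordinates come from GENCODE 29 on GRCh38 and matched 52338 of 57820 gene IDs. The version of the ID is that of GENCODE 29 for 3 of the 39 members found, so the authors counted on another release.

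CPM were divided by TMM factors (edgeR 4.0.16), filtered with filterByExpr (minimum count 10, total 15) and tested as log2(CPM + 0.25) with limma 3.58.1 (trend, R 4.3.3) in 1 fit of all libraries, with Benjamini-Hochberg adjustment over 19835 genes within each of 15 comparisons and a threshold of 0.05. Log2 fold changes on this scale understate changes of low genes. On simulated data for KO against WT at 48 h (19835 genes) the test recovered 44.0% of genes changed 1.5-fold and 96.0% of those changed 4-fold. Alternatives were DESeq2 1.42.0 and edgeR on recovered reads, RLE factors, CPM as deposited, a pseudocount of 1, no filter, only the groups compared, a replicate block and libraries left out. Libraries of 1 group differed by more than sampling noise. The members and the other gene lists were chosen with earlier results of these data known, and adjusted p-values are over all genes tested. Named genes were the 3 members with the largest called change in each direction of a comparison, a fixed set (NCL, NPM1, FBL, DKC1, NOP56, POLR1A, UBTF, RRN3, GNL3, MYC, MYCN, MYCL and MAX) and 2 other factors in each direction; further members were named after their values were seen. Of 108 other factors 104 were measured. Promoters come from RefSeq on GRCh38.p14, where NOP58, RRP1B, NOLC1, TCOF1, RRS1 and RRP12 had no entry.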

Additional observations from a re-analysis of the deposited data

Results flagged for a closer look

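The changes since 0 h differed between KO and WT by limma's test of the difference in 2 members at 3 h, 4 at 6 h and 11 at 48 h, given here as the KO change minus the WT change on the log2 scale. At 3 h the differences were 0.54 in NOP58 and -0.76 in PPAN. At 6 h they were 0.40 in BRIX1, 0.58 in NOP58, 0.47 in UTP15 and -1.03 in PPAN. At 48 h they were 0.67 in DDX21, 0.41 in GNL3, 0.52 in LYAR, 0.50 in NIP7, 0.43 in NOLC1, 0.60 in NOP56, 0.72 in NOP58, 0.78 in RRS1, 0.56 in UTP15, 0.38 in WDR12 and -0.88 in PPAN. All of these differences share the 0 h libraries of both genotypes, and WT 0 h library 1, whose members were low, is 1 of the 3 WT libraries at 0 h. Its part in them was not tested beyond the values without it given above. PPAN was the 1 member with a smaller change in KO at each hour that passed the test, and its reads may be shared with the overlapping readthrough gene.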

How the results depend on the processing

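Of 3774 values of named genes under the alternatives, 3555 kept their direction and side of the threshold, 148 lost a call, 71 gained one and none of these values reversed. With only the groups compared, the members called were 0 for KO against WT at 0 h, 4 at 6 h and 5 at 48 h, 15 for WT and 21 for KO at 48 h against 0 h, and 0 at 3 h and 1 at 48 h for the difference of responses. Of all genes 1.06%, 15.8%, 16.3%, 35.1%, 71.2%, 3.47% and 3.5% were called in that order, so the members' shares were near or below these. Without the 3 libraries that stood apart they were 30, 2, 1 and 23 for KO against WT at 0, 3, 6 and 48 h, 23 for KO at 48 h against 0 h, and 29, 32 and 36 for the difference of responses at 3, 6 and 48 h. DESeq2 called 4 members for KO against WT at 48 h (13.3% of all genes). RLE factors left 1 call in the difference of responses at 3 h (9% of all genes), and no filter left 1 at 3 h and 1 at 6 h (3.94% and 3.84% of all genes). The cause was not tested.

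With 1 library left out in turn, members called for KO against WT ran from 3 to 25 at 0 h, 0 to 1 at 3 h, 0 to 0 at 6 h and 1 to 2 at 48 h. Of all genes 7.61% to 33.1%, 1.65% to 3.47%, 1.66% to 1.77% and 8.42% to 10.6% were called in that order. In WT the members called ran from 29 to 31 at 3 h, 33 to 33 at 6 h and 19 to 25 at 48 h against 0 h, and 34 to 39 at 48 h against 6 h. The shares of all genes were 49.2% to 57.1%, 56.1% to 62.0%, 46.8% to 57.4% and 58.3% to 60.8%. In KO the ranges were 32 to 34, 32 to 33, 11 to 14 and 33 to 35 members. There the shares of all genes were 60.1% to 64.2%, 63.3% to 64.4%, 46.1% to 47.6% and 56.1% to 56.9%. For the difference of responses 1 to 21 members were called at 3 h, 1 to 18 at 6 h and 5 to 27 at 48 h, where 6.13% to 25.3%, 5.82% to 25% and 5.01% to 25.9% of all genes were called. A lone pair of libraries was left in the shortened group, with the spread pooled over all groups.

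Same-numbered libraries of different groups had a median correlation of deviations of 0.0008 (8 of 84 pairs over 0.1). For libraries of other numbers it was 0.0005 (18 of 168 pairs over 0.1). No pairing by number showed in these medians, which cannot exclude pairing between some of the groups. The labels do not say whether the numbers pair libraries. With the replicate block the members called were 13, 0, 0 and 2 for KO against WT, and 3, 5 and 11 for the difference of responses at 3, 6 and 48 h. Without the block they were 14, 0, 0 and 2, and 2, 4 and 11. The share of all genes called with the block is not given here. Depth was at least 29896358 reads and the number of libraries, 3 a group, limits the precision.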
